A study of Mus musculus with 5 samples.

Results

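The Notch genes described here were the 4 receptors Notch1, Notch2, Notch3 and Notch4, the 4 ligands Jag1, Jag2, Dll1 and Dll4, and the 2 target genes Hes1 and Hey1. They were taken by gene symbol, 10 of 35478 genes listed in the count tables, and 10 of 10 passed the filter on low counts, as did 16394 genes in all. RNA was sequenced from injured mouse kidneys 11 days after unilateral ischemia-reperfusion (UIRI). For this injury the left renal pedicle was clamped for 35 minutes at 38.5 °C, the contralateral kidney was taken out on day 10, and the mice were killed 24 hours later. Prdm16fl/fl mice (n = 2, mice 1 and 3) carried loxP sites around an exon of Prdm16, which encodes a zinc finger transcriptional regulator, and no Cre. Ksp-Cre/Prdm16fl/fl mice (n = 3, mice 1, 2 and 3) carried the same floxed alleles and Cre driven by the Ksp promoter, which is active in kidney tubular epithelial cells. All mice had UIRI. Their strain field reads C57BL/6J;129, as do the methods of the study, while their titles read C57BL/6J. The methods describe the animals as male, with littermate controls, and the RNA as coming from kidney cortex. Because the control mice carried no Cre, the presence of Cre and the loss of Prdm16 cannot be told apart in this comparison, and no uninjured kidney was analysed here.

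Notch signaling works by contact between neighboring cells. A Jagged or Delta-like ligand on one cell binds a Notch receptor on the next, the receptor is cut by an ADAM protease and then by gamma-secretase, and its freed intracellular domain enters the nucleus, where it joins the DNA-binding protein RBPJ and Mastermind coactivators to switch on genes of the Hes and Hey families, which encode transcriptional repressors. In the kidney the pathway is known for patterning the nephron during development, for its role in vessels (Dll4, Jag2 and Notch4 are known in endothelium, Notch3 in vascular smooth muscle cells and pericytes), and for being switched back on in tubular cells of injured and fibrotic kidneys.

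The upstream promoters of 3 members are shown because the results below turn on these genes. Notch1 was the receptor whose genotype groups were separated, Jag1 the ligand whose call depended on a single mouse, and Notch4 the receptor in which that mouse stood furthest from the others of its genotype. Each line gives the 250 bases before the annotated start, from RefSeq on GRCm38.p6, read 5′ to 3′ on the strand of the gene. Capitals mark matches to the HES/HEY C-site (CACGCG, or on the other strand CGCGTG) and to the HES N-box (CACNAG, or on the other strand CTNGTG), motifs bound by repressors of the HES and HEY families, and no base lay in more than 1 match.
Notch1, chr2:26503823-26504072, minus strand: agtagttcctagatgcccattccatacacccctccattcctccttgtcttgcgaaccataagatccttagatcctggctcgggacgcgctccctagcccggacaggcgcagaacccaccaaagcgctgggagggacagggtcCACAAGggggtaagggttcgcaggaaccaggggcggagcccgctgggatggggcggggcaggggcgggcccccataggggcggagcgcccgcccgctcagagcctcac
Jag1, chr2:137116521-137116770, minus strand: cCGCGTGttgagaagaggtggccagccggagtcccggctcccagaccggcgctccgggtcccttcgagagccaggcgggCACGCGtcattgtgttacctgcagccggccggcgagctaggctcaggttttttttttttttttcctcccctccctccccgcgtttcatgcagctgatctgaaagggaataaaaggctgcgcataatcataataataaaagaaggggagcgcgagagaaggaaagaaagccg
Notch4, chr17:34564045-34564294, plus strand: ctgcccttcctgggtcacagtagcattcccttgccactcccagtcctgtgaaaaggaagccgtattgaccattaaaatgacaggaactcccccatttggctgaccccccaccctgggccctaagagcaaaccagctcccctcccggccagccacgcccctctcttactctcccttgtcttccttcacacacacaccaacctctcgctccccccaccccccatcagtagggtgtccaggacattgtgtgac
The Notch1 window held 1 N-box, which began 108 bases before the start. The Jag1 window held 2 C-sites, 249 and 171 bases before the start, and the Notch4 window held no match. Promoters were found for 8 of the 10 members, all but Hes1 and Hey1, in 9 windows since Dll1 had 2. The RBPJ core motif (TGGGAA, or on the other strand TTCCCA) was in 0 of these 8 members, against 21.6% of 32851 promoter windows of the same length. The HES/HEY E-box CACGTG, which reads the same on both strands, was also in 0 of 8, against 6.02% of all windows. C-sites, present in 7.62% of all windows, were in the windows of Notch2, Jag1, Dll4 and the second window of Dll1, and N-boxes, present in 36.7%, were in those of Notch1, Notch2, Notch3 and Dll4. The G and C content of the Notch1 and Jag1 windows was 66.0% and 57.2%, against a median of 52.4% over all windows, and a match to these letters is a description of the sequence only.

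The libraries held 15215871 and 14939040 counts in Prdm16fl/fl mice 1 and 3, and 16425161, 16111708 and 15470435 counts in Ksp-Cre/Prdm16fl/fl mice 1, 2 and 3. Levels below are counts scaled to 1000000 per library (CPM) by the TMM method, in the order of these mice, and differences are log2 fold changes of Ksp-Cre/Prdm16fl/fl over Prdm16fl/fl mice from edgeR's quasi-likelihood test, with Benjamini-Hochberg adjustment over all 16394 genes and a threshold of 0.05. Prdm16 itself was at 25.3 and 20 CPM in Prdm16fl/fl mice and at 17.1, 17.0 and 18.0 CPM in knockouts. All 3 knockout kidneys were below both controls, with a log2 fold change of -0.38 (SE 0.15, edgeR adjusted p = 0.259), so the whole-gene count in whole tissue did not pass the test. The value was -0.41 without knockout mouse 3, -0.21 without control mouse 1 and -0.54 without control mouse 3. Ksp-Cre/Prdm16fl/fl mouse 3 stood apart from the other libraries. Over log2 CPM of the genes tested, Ksp-Cre/Prdm16fl/fl mice 1 and 2 correlated at r = 0.991 and the Prdm16fl/fl mice at r = 0.989, while mouse 3 correlated with mice 1 and 2 of its own genotype at r = 0.957 and 0.96. No libraries were alike to within counting noise, the closest pair giving a chi-square of 9.89 per degree of freedom. The fold changes of the Notch genes, of the pathway genes named and of the marker lists are therefore also given without this mouse.

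None of the 10 Notch genes passed the test between genotypes in the fit of all 5 mice, where 160 of 16394 genes did (0.976%), 17 higher (0.104%) and 143 lower (0.872%). Of these, 13 higher (0.0793%) and 103 lower genes (0.628%) also differed by at least 1 log2 unit, and DESeq2, which called 7.32% of all genes, called 0 of the 10 Notch genes as well. At an unadjusted p under 0.05 there were 2 of 10, Notch1 higher and Hey1 lower, against 18.8% of all genes. The genotype groups did not overlap for 3 of 10, Notch1 and Hes1 higher and Hey1 lower, against 41.6% of all genes. The count at an unadjusted p under 0.05 was thus near its share of all genes, and the count of separated groups below its share. Fitted values were above 0 for 7 members and below 0 for 3, with a median of 0.10 on the log2 scale against 0.04 for all genes tested. The 95% confidence interval lay within 1 log2 unit of 0 in either direction for 9 of 10, Hey1 being the exception, so differences beyond 1 log2 unit lay outside the interval for the other 9. Without Ksp-Cre/Prdm16fl/fl mouse 3, 3053 of 16196 genes passed (18.9%), 1266 of them higher (7.82%) and 1787 lower (11.0%), and 1 of the 10 members, Jag1, was among the higher ones. Without any one of the remaining 4 mice, 0 genes of the whole table passed edgeR's test, while 1330 to 2514 genes (7.81% to 15.5%) had an unadjusted p under 0.05. The plot of CPM by mouse shows that the spread among the 3 knockout kidneys was often as wide as the distance between genotypes.

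**Figure D1:**
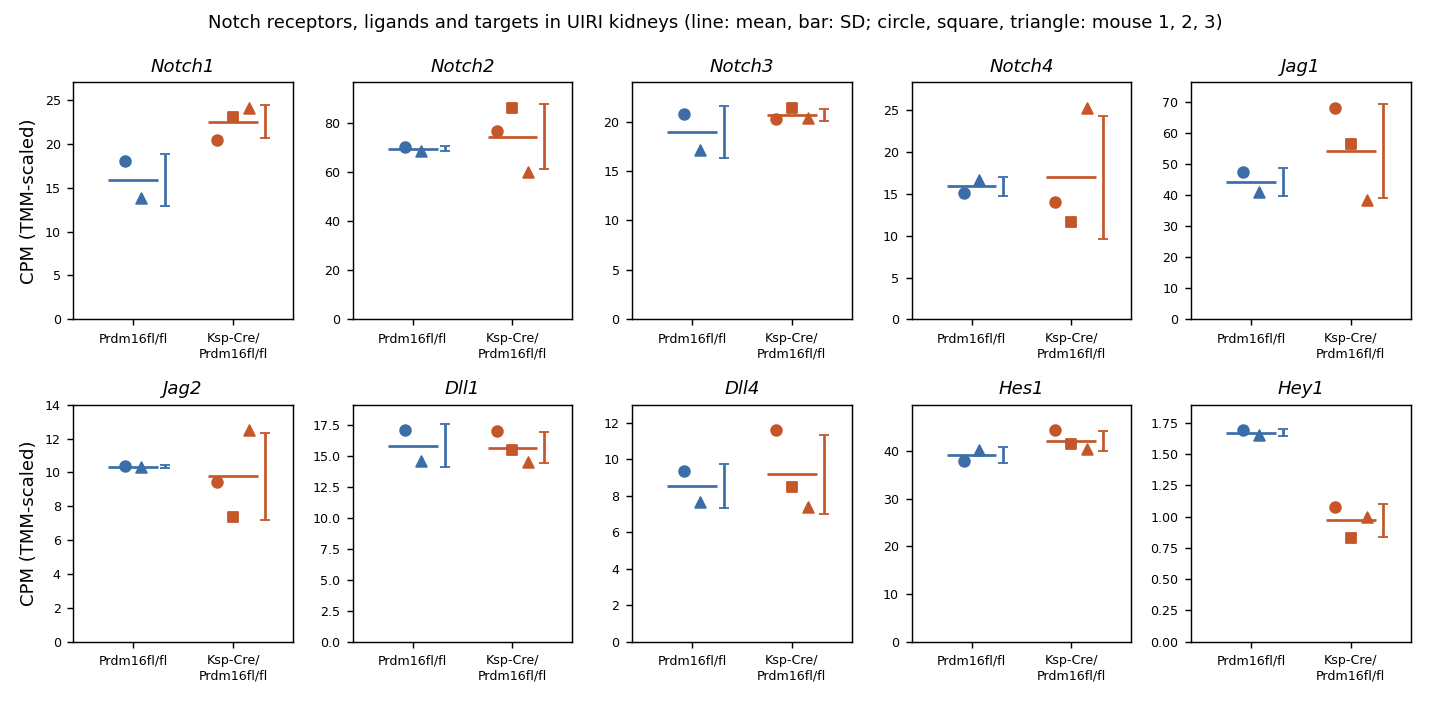
CPM (TMM-scaled, linear axis from 0) of the 10 Notch genes in 2 Prdm16fl/fl and 3 Ksp-Cre/Prdm16fl/fl kidneys 11 days after UIRI, with circle, square and triangle for mouse 1, 2 and 3, a line for the group mean and a bar for the SD. Notch1 and Hes1 lay higher and Hey1 lower in every knockout kidney, while mouse 3 of the knockouts was the highest of the 5 for Notch4 and Jag2 and the lowest for Notch2, Jag1, Dll1 and Dll4.

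Among the receptors, Notch1 had the largest genotype difference. Notch1 (chromosome 2, 26347914 to 26393834, minus strand, coordinates as deposited) was at 18.0 and 13.8 CPM in Prdm16fl/fl mice and at 20.4, 23.0 and 24.1 CPM in the knockouts. Every knockout kidney was above both controls, including mouse 3, which was the highest. Its log2 fold change was 0.50 (SE 0.17, 95% interval 0.07 to 0.92), a 1.41-fold ratio that did not pass the test (edgeR adjusted p = 0.209). The value was 0.45 without mouse 3 (edgeR adjusted p = 0.0826), and over 16 alternative fits it ranged from 0.32 to 0.70, none of which passed. Notch2 (chromosome 3, 97920854 to 98057683, plus strand), the receptor known for its part in forming the proximal nephron, was at 70.1 and 68.7 CPM in controls and at 76.6, 86.1 and 60.0 CPM in knockouts. Mice 1 and 2 were above both controls and mouse 3 below them, and the log2 fold change was 0.10 (SE 0.17, edgeR adjusted p = 0.796), or 0.23 without mouse 3.

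Notch3 (chromosome 17, 32339794 to 32385869, minus strand) was the steadiest receptor among knockouts, at 20.3, 21.4 and 20.4 CPM against 20.8 and 17.1 CPM in controls. The groups overlapped, with a log2 fold change of 0.12 (SE 0.15, edgeR adjusted p = 0.695), or 0.13 without mouse 3. Notch4 (chromosome 17, 34783257 to 34807517, plus strand) was the least steady, at 14.0, 11.6 and 25.3 CPM in knockouts against 15.1 and 16.7 CPM in controls. Mice 1 and 2 lay below both controls and mouse 3 above them, 0.99 log2 units over the mean of mice 1 and 2. The Notch4 difference between genotypes was 0.09 (SE 0.34, 95% interval -0.75 to 0.92, edgeR adjusted p = 0.914) with all mice and turned to -0.31 without mouse 3 (edgeR adjusted p = 0.19).

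Of the ligands, Jag1 (chromosome 2, 136923371 to 136958440, minus strand), which encodes the Jagged ligand known in injured tubular cells, was at 47.3 and 40.9 CPM in Prdm16fl/fl mice and at 68.0, 56.3 and 38.2 CPM in the knockouts. Knockout mice 1 and 2 exceeded both controls, whereas mouse 3 was the lowest of the 5. With all mice the log2 fold change of Jag1 was 0.30 (SE 0.25, 95% interval -0.30 to 0.90, edgeR adjusted p = 0.553). Without mouse 3 it was 0.50 and passed the test (edgeR adjusted p = 0.0304), the only fit of the 16 alternatives in which a member of the 10 was called. In the other alternatives the value lay at 0.10 or above. Jag2 (chromosome 12, 112871423 to 112893432, minus strand) had the opposite pattern across knockouts, at 9.42, 7.38 and 12.5 CPM against 10.4 and 10.3 CPM in controls. Mice 1 and 2 lay below the controls and mouse 3 above, and the log2 fold change was -0.09 (SE 0.26, edgeR adjusted p = 0.88), or -0.30 without mouse 3 (edgeR adjusted p = 0.275).

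The Delta-like ligands differed little between genotypes. Dll1 (chromosome 17, 15587616 to 15597275, minus strand) was at 17.1 and 14.6 CPM in controls and at 17.0, 15.5 and 14.5 CPM in knockouts. Its groups covered nearly the same range, with a log2 fold change of -0.02 (SE 0.16, 95% interval -0.41 to 0.37, edgeR adjusted p = 0.965), or 0.04 without mouse 3. Dll4 (chromosome 2, 119156265 to 119166147, plus strand), the ligand of sprouting and arterial endothelium, was at 9.37 and 7.68 CPM in controls and at 11.6, 8.51 and 7.40 CPM in knockouts. Knockout mouse 1 was the highest and mouse 3 the lowest of the 5, and the log2 fold change was 0.11 (SE 0.26, 95% interval -0.52 to 0.74, edgeR adjusted p = 0.854), or 0.24 without mouse 3. The sign of both values changed in some fits without 1 mouse, and that of Dll1 and Jag2 also with scaling by library size alone.

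The 2 target genes went different ways, neither past the test. Hes1 (chromosome 16, 29884175 to 29886614, plus strand), the Hes family repressor most widely used as a readout of Notch activity, was at 38.0 and 40.3 CPM in controls and at 44.4, 41.5 and 40.5 CPM in knockouts. The groups did not overlap, though the nearest mice were 40.3 and 40.5 CPM, and the log2 fold change was 0.11 (SE 0.11, 95% interval -0.17 to 0.38, edgeR adjusted p = 0.647), the narrowest interval of the 10, or 0.14 without mouse 3. The log2 fold change of Hes1 was 0.06 without control mouse 1, 0.07 without knockout mouse 1 and 0.24 with a gene length trend removed. The groups overlapped with upper quartile scaling and with a filter of at least 10 counts in every library. Hey1 (chromosome 3, 8728419 to 8732098, minus strand), a repressor known in endothelium and in nephron development, was at 1.69 and 1.65 CPM in controls and at 1.08, 0.827 and 0.999 CPM in knockouts. These levels rested on 25 and 23 counts in controls and on 19, 14 and 15 counts in knockouts. All 3 knockout kidneys were below both controls, by -0.78 on the log2 scale (SE 0.32, 95% interval -1.56 to -0.0038, edgeR adjusted p = 0.264), or -0.80 without mouse 3 (edgeR adjusted p = 0.133). Hey1 was the largest difference in size among the 10 and kept its sign in every alternative fit that held it, from -0.86 to -0.67, with adjusted p from 0.133 to 0.781.

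**Figure D2:**
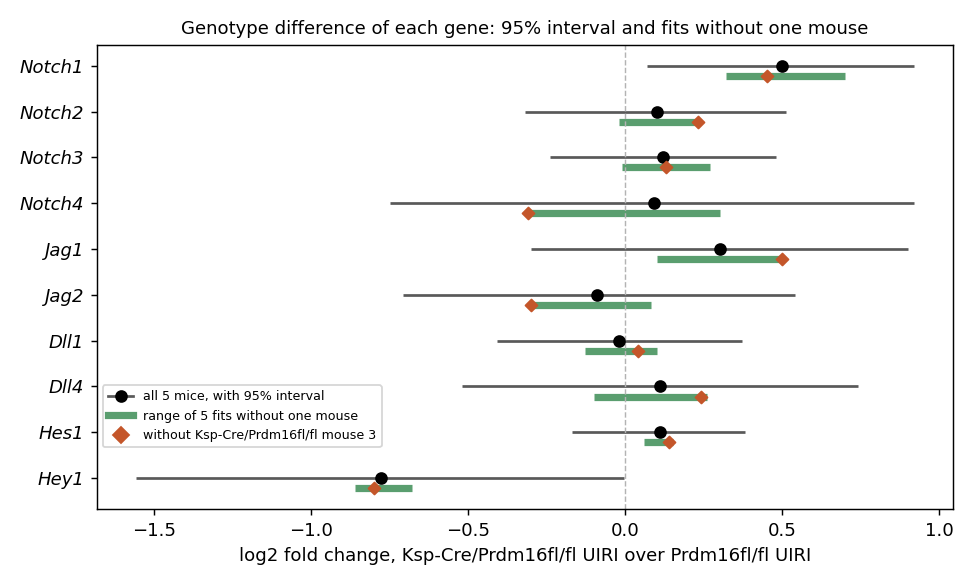
Log2 fold change of each Notch gene, Ksp-Cre/Prdm16fl/fl over Prdm16fl/fl kidneys after UIRI, with the 95% interval (dark line), the range of the 5 fits that each leave out 1 mouse (green bar) and the fit without knockout mouse 3 (diamond). The intervals of Notch1 and Hey1 alone do not reach 0, and the diamonds of Notch2, Notch4, Jag1 and Jag2 lie at an end of their green bars.

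The difference between knockout mouse 3 and the mean of knockout mice 1 and 2 was larger than the genotype difference for 6 of the 10 members. It was 0.99 on the log2 scale for Notch4, 0.59 for Jag2, -0.70 for Jag1, -0.44 for Notch2 and -0.43 for Dll4, and -0.17 for Dll1. For Notch1, Notch3, Hes1 and Hey1 it was at most 0.15 in size. Without mouse 3 the groups did not overlap for 7 of the 10 members, against 63.7% of all genes in that fit, 4 of them higher (Notch1, Notch2, Jag1 and Hes1) and 3 lower (Notch4, Jag2 and Hey1). The median of the 10 was then 0.14, and it was 0.03 without control mouse 3.

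Levels of different genes were compared as TPM, transcript levels that divide the counts by gene length and sum to 1000000 in each library. Hes1 was the most abundant of the 10, at 57.6 ± 8.77 TPM (SD, n = 5), followed by Notch2 at 16.8 ± 3.75 and Jag1 at 10.6 ± 3.56 TPM. Dll1 was at 9.12 ± 1.42, Dll4 at 6.33 ± 1.72, Notch3 at 5.84 ± 0.993, Notch4 at 5.56 ± 1.65, Notch1 at 5.14 ± 1.43 and Jag2 at 4.59 ± 0.745 TPM, and Hey1 was last at 1.23 ± 0.289 TPM. This order pools both genotypes and differed in part by group. In control means Dll1 (8.3 TPM) was just above Jag1 (8.26 TPM), and Jag2 (4.34 TPM) above Notch1 (3.7 TPM). In knockout means Notch1 (6.11 TPM) was just above Notch4 (6.02 TPM). Only the steps from Hes1 to Notch2 and from Jag2 to Hey1 were between genes whose ranges over the 5 mice did not overlap, while each other neighbouring pair overlapped. Genes further apart were separated by range in part. The lowest Notch2 value, 13.6 TPM, was above the highest of each gene from Dll1 (10.9 TPM) down, and the lowest Jag1 and Dll1 values, 7.27 and 7.23 TPM, were above the highest of Notch3 (6.85 TPM), Notch1 (6.5 TPM) and Jag2 (5.71 TPM). The summed receptor TPM was 28.0 ± 3.14 in controls and 36.9 ± 2.83 in knockouts, that of the ligands 26.3 ± 4.39 and 33.4 ± 6.71, and that of Hes1 and Hey1 50.9 ± 1.54 and 64.0 ± 6.59 (SD, n = 2 and 3). On this scale the median log2 ratio of all genes tested was itself 0.28, against 0.04 in the TMM-scaled fit, so these sums are above the controls on a scale on which most genes are.

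Shares within a family do not depend on that scale. Notch2 made up 50.6% and 52.8% of the receptor TPM in controls and 52.7%, 55.3% and 40.1% in knockouts, the lowest share being that of mouse 3. Notch1 contributed 14.4% and 11.8% in controls and 15.5%, 16.4% and 17.8% in knockouts, the one receptor or ligand whose shares were higher in every knockout. Notch4 took 16.1% and 18.9% in controls and 14.2%, 11.0% and 24.9% in knockouts, so mouse 3 had a larger Notch4 share in place of Notch2. Among the ligands, Jag1 held 31.5% and 31.3% of the TPM in controls and 38.6%, 38.8% and 29.0% in knockouts. Jag2 held 15.5% and 17.7% in controls and 12%, 11.4% and 21.3% in knockouts, again with mouse 3 on the far side of the controls. Dll1 held 31.8% and 31.1% in controls and 26.9%, 29.9% and 30.7% in knockouts, lower in each of them, and Dll4 between 19.1% and 22.5% in all 5 mice. With 2 against 3 mice the smallest two-sided p of an exact permutation test is 0.1, so none of the 8 shares could pass a threshold of 0.05, and their differences are given as values only.

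**Figure D3:**
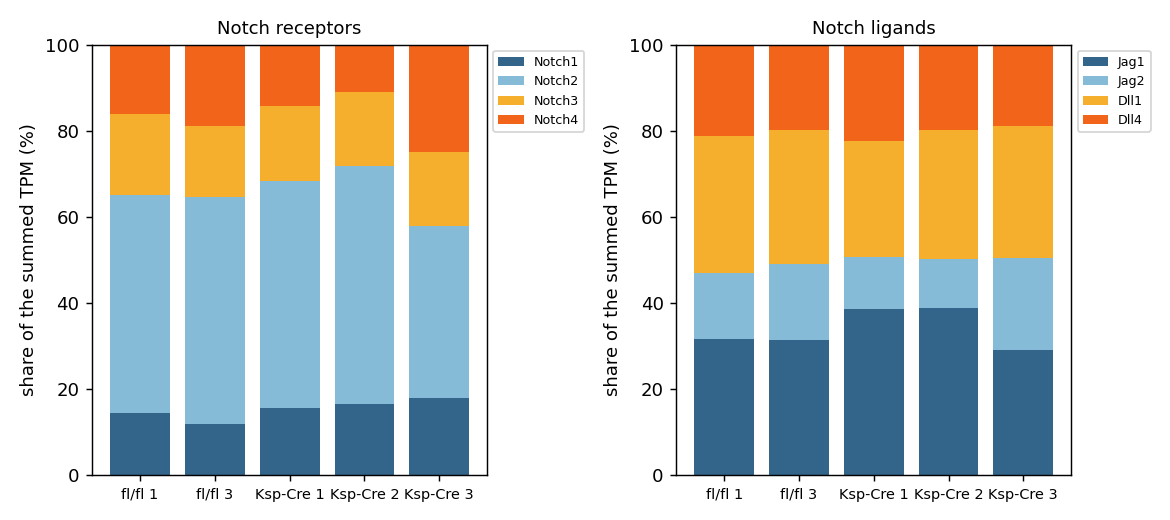
Share of each receptor (left) and each ligand (right) in the summed TPM of its family, in percent, for each of the 2 Prdm16fl/fl (fl/fl) and 3 Ksp-Cre/Prdm16fl/fl (Ksp-Cre) kidneys. Knockout mice 1 and 2 resembled each other, with Jag1 at 38.6% and 38.8% of the ligands, while mouse 3 had more Notch4 (24.9%) and Jag2 (21.3%) and less Notch2 (40.1%).

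The wider pathway was described with 6 lists, holding 99 gene names, of which 90 were tested. Of these 90 genes, 1 passed the test, Fhl1 of the RBPJ list, against 0.976% of all genes. At an unadjusted p under 0.05 there were 13 higher (all genes 7.64%) and 6 lower (11.2%), the groups did not overlap for 26 higher (20.3%) and 13 lower (21.3%), and the median log2 fold change was 0.13. Without knockout mouse 3, 20 of 89 passed (all genes 18.9%), 13 higher and 7 lower, among them Rbpj. The genes named next were chosen by a rule on p and separation, and the 14 besides Fhl1 did not pass edgeR's test with all 5 mice. Without knockout mouse 3, 12 of these 14 passed it (edgeR adjusted p from 0.00249 to 0.0327, all genes 18.9%), all but Gxylt1 and Numbl. With DESeq2 and all 5 mice, 8 of the 14 passed (DESeq2 adjusted p from 3.89e-05 to 0.0375, all genes 7.32%), namely Adam10, Rfng, Tle5, Dtx4, Neurl1a, Myc, Hes6 and Bhlhe40. The rule chose these genes by p and separation in the same mice, so both counts cannot be read as a result about the lists.

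In the list of RBPJ and its coactivators and corepressors, 1 of 22 genes passed, against 0.976% of all genes. Of the 22, 13 were above 0 and 9 below, with a median of 0.03. At an unadjusted p under 0.05 there were 0 higher (7.64% of all genes) and 3 lower (11.2%). The groups did not overlap for 3 higher (20.3% of all genes) and 4 lower (21.3%). Fhl1, which encodes a LIM domain protein with an isoform that binds RBPJ and represses its targets, was at 213 and 235 CPM in controls and at 130, 132 and 122 CPM in knockouts. It fell by 0.80 on the log2 scale (SE 0.12, edgeR adjusted p = 0.0465), with every knockout kidney far below both controls, and by 0.76 without mouse 3 (edgeR adjusted p = 0.00215). The size held in 16 alternative fits, from -0.88 to -0.67, but 11 of them did not pass, including each fit that left out one of the other 4 mice (adjusted p up to 0.521). Fhl1 is also known as an abundant protein of muscle. Its count covers the whole gene, so the isoform that binds RBPJ was not measured apart. Tle5 and Tle2, corepressors or corepressor regulators of the Groucho family that HES proteins recruit, had log2 fold changes of -0.77 (edgeR adjusted p = 0.0685) and -0.73 (edgeR adjusted p = 0.196), and of -0.74 and -0.52 without mouse 3 (edgeR adjusted p = 0.00711 and 0.0174). Tle5 was at 451 and 524 CPM in controls and at 317, 265 and 273 CPM in knockouts. Rbpj itself, named here after its values were seen, was at 64.1 and 55.1 CPM in controls and at 79.8, 86.1 and 47.8 CPM in knockouts, the same order of the 5 mice as for Notch2. Its log2 fold change was 0.26 (SE 0.26, edgeR adjusted p = 0.631), and 0.48 without mouse 3 (edgeR adjusted p = 0.0192), but 0.10 without knockout mouse 2, 0.15 without control mouse 3 and 0.06 with a replicate block, none of them called.

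No gene passed edgeR's test with all 5 mice among those that cut or glycosylate the receptors, of 10 and 11 tested, with 1 of 10 and 2 of 11 at an unadjusted p under 0.05, counts near the 18.8% of all genes. Adam10, the protease that makes the first cut after ligand binding, was at 137 and 152 CPM in controls and at 201, 206 and 246 CPM in knockouts. The groups were well separated, with a log2 fold change of 0.59 (SE 0.14, edgeR adjusted p = 0.112). Adam10 passed without mouse 3 (0.50, edgeR adjusted p = 0.0117) and with DESeq2 (DESeq2 adjusted p = 0.0162). Its list, of ADAM proteases, gamma-secretase subunits and Furin, had a median of -0.02, with 5 genes above and 5 below 0. Rfng, a Fringe enzyme that lengthens the fucose sugars on Notch and alters its choice of ligand, was at 50.6 and 52.0 CPM in controls and at 36.3, 30.2 and 29.9 CPM in knockouts, a log2 fold change of -0.67 (SE 0.13, edgeR adjusted p = 0.0725). Rfng passed without mouse 3 (-0.62, edgeR adjusted p = 0.00985) and with DESeq2 (DESeq2 adjusted p = 0.00681). Gxylt1, which adds xylose to the glucose on Notch, had a log2 fold change of 0.54 (edgeR adjusted p = 0.205), or 0.43 without mouse 3 and 0.35 without control mouse 3. The glycosylation list had 9 genes above and 2 below 0, with a median of 0.12, where 8857 of all 16394 genes tested were above 0.

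In the list of trafficking and turnover genes, 17 of 22 were above 0, as were 8857 of all 16394 genes tested, and the median was 0.19. None passed edgeR's test with all 5 mice, and 5 were higher at an unadjusted p under 0.05 (7.64% of all genes). The groups did not overlap for 9 higher (20.3% of all genes) and 3 lower (21.3%). Dtx4, a Deltex ubiquitin ligase that acts on internalized Notch, was at 36.1 and 33.9 CPM in controls and at 57, 58.7 and 55.8 CPM in knockouts. All knockouts were clearly above the controls and close to each other, and the log2 fold change of 0.71 (SE 0.11) just missed the threshold (edgeR adjusted p = 0.0505), while it was 0.73 without mouse 3 (edgeR adjusted p = 0.00249) and passed with DESeq2 (DESeq2 adjusted p = 0.000242). Neurl1a, a ubiquitin ligase for Notch ligands, had a log2 fold change of 0.96 (edgeR adjusted p = 0.111), the endocytic adaptor Epn2 one of 0.47 (edgeR adjusted p = 0.143), and Numbl, a relative of the Notch inhibitor Numb, one of 0.85 (edgeR adjusted p = 0.171). Without mouse 3 they were 1.01 (edgeR adjusted p = 0.0156), 0.38 (edgeR adjusted p = 0.031) and 0.65 (edgeR adjusted p = 0.0514), and DESeq2 called Neurl1a alone of these (DESeq2 adjusted p = 0.0375). Among other and noncanonical ligands, 0 of 7 passed edgeR's test with all 5 mice and 1, Mfap5, had an unadjusted p under 0.05, near the 18.8% of all genes. Mfap5, a microfibril protein that is also a marker of fibroblasts, was at 1.42 and 3.37 CPM in controls and at 7.27, 5.20 and 4.60 CPM in knockouts, a log2 fold change of 1.25 with a wide error (SE 0.44, edgeR adjusted p = 0.207), or 1.39 without mouse 3 (edgeR adjusted p = 0.0327), 0.75 without control mouse 1 and 2.0 without control mouse 3.

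Among other Hes and Hey genes and direct targets, 10 of 18 were above 0, 8 below and 0 past edgeR's test with all 5 mice, with 5 higher (7.64% of all genes) and 2 lower (11.2% of all genes) at an unadjusted p under 0.05. Myc, a growth regulator with many inputs besides Notch, was at 21.4 and 18.2 CPM in controls and at 45.2, 36.3 and 48.6 CPM in knockouts. Its log2 fold change of 1.13 (SE 0.17, edgeR adjusted p = 0.0505) just missed the threshold, with a wide gap between the groups, and Myc passed without mouse 3 (1.04, edgeR adjusted p = 0.00288) and with DESeq2 (DESeq2 adjusted p = 3.89e-05). Bhlhe40, a repressor that also answers to hypoxia and the circadian clock, had a log2 fold change of 0.68 (edgeR adjusted p = 0.0962), and of 0.73 without mouse 3 (edgeR adjusted p = 0.00616, and DESeq2 adjusted p = 0.00451 with all mice). Lower values were found for Hes6, a Hes family member that opposes Hes1, at -0.59 (edgeR adjusted p = 0.081), and for Gja5, the connexin of arterial endothelium and renin cells, at -1.16 (edgeR adjusted p = 0.162). Without mouse 3 these were -0.64 (edgeR adjusted p = 0.00636) and -0.92 (edgeR adjusted p = 0.0292), and with all mice DESeq2 called Hes6 (DESeq2 adjusted p = 0.018) and not Gja5 (DESeq2 adjusted p = 0.06). Gja5 was at 7.89 and 6.03 CPM in controls and at 4.03, 3.31 and 1.93 CPM in knockouts.

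Further Hes and Hey relatives are given as levels and were chosen after their values were seen. Heyl, a target of Notch3 in vascular smooth muscle, was at 19.9 and 13.5 CPM in controls and at 18.8, 21.7 and 9.13 CPM in knockouts, and Hey2 at 2.02 and 1.58 against 1.76, 2.01 and 1.53 CPM. Both overlapped between genotypes, with mouse 3 the lowest of the 5 for each. Nrarp, a feedback inhibitor, had a log2 fold change of -0.13 (edgeR adjusted p = 0.737), or -0.06 without mouse 3. Hes5 was listed with 0 counts in 4 mice and 1 count in knockout mouse 3, under the floor of 3 counts, so no ratio was formed.

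**Figure D4:**
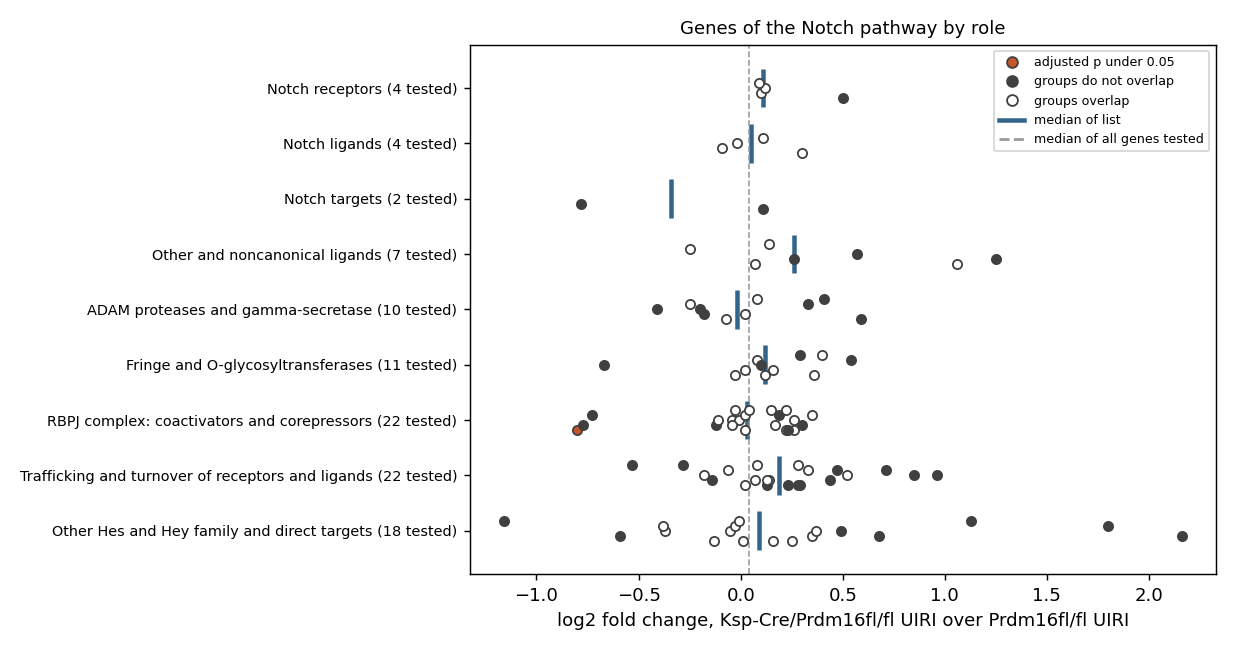
Log2 fold change, Ksp-Cre/Prdm16fl/fl over Prdm16fl/fl kidneys after UIRI, of each tested gene of the Notch pathway by role, with filled points where the groups did not overlap, the orange point for adjusted p under 0.05 (Fhl1), blue lines at list medians and a dashed line at the median of all genes tested (0.04). List medians lie between -0.34 for the 2 targets and 0.26 for other ligands, the latter 0.57 without control mouse 3. The 2 targets went opposite ways, Hes1 at 0.11 and Hey1 at -0.78, so their median is only the midpoint.

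Bulk kidney RNA mixes many cell types, and fewer cells of a type cannot be told apart from less RNA per cell. The lists of tubular cell markers had larger medians than the Notch genes. Of 15 proximal tubule markers, 15 were below 0 with a median of -1.28 (-1.14 without mouse 3) and 3 passed edgeR's test (0.872% of all genes passed lower), and of 14 injured tubule markers, 14 were above 0 with a median of 0.98 (0.96 without mouse 3) and 1 passed (0.104% of all genes higher). The summed TPM of the injured tubule list, whose most abundant gene was Spp1, was 20800 and 19700 in controls and 52000, 52500 and 55600 in knockouts, while that of the proximal list, led by Slc27a2, was 10300 and 10000 against 4720, 5610 and 4600. No marker of either list was at 0 in all mice. Against the control mean, Notch1 was 0.37, 0.54 and 0.61 log2 units higher in knockout mice 1, 2 and 3. The injured tubule median was 0.92, 0.87 and 0.75 higher, in the reverse order of mice, and the proximal tubule median was lower in each. The parietal epithelial and fibroblast medians also lay above the control mean in every knockout mouse. The part of these lists in the Notch1 value was not tested. The lists of podocyte, intercalated cell, collecting duct principal cell and distal convoluted tubule markers, in which 7 of 7, 8 of 8, 8 of 8 and 4 of 4 genes were below 0, had medians of -0.64, -0.91, -0.64 and -1.0, and that of thick ascending limb -0.66. Of these lists, the podocyte and intercalated cell markers each had 1 gene that passed lower. Without mouse 3 the 5 medians were -0.64, -0.88, -0.53, -0.70 and -0.35 in that order, without Prdm16fl/fl mouse 1 those of podocyte and distal convoluted tubule markers were -0.40 and -0.57, without Prdm16fl/fl mouse 3 that of thick ascending limb was -0.41, and all 5 stayed below 0 whichever mouse was left out. Parietal epithelial markers had a median of 0.90, with 4 of 5 above 0, and 0.84 without mouse 3.

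The vascular lists, which hold the cells in which Notch3, Notch4, Dll4, Hey1 and Heyl are known, were near 0, and their medians moved with single mice. Of 14 endothelial markers, 9 were above 0 with a median of 0.13 (0.01 without mouse 3), and their summed TPM was 418 and 401 in controls and 526, 441 and 587 in knockouts, with Plvap the most abundant and mouse 3 the highest. Notch4 was likewise highest in mouse 3, and the part of endothelial content in its value was not tested. Arterial markers, led by Cxcl12, had a median of -0.15 (-0.24 without mouse 3, and -0.24 to -0.03 over the mice left out in turn) and summed TPM of 67.2 and 73.7 against 83.3, 76.0 and 54.1, and smooth muscle and pericyte markers, led by Acta2, a median of -0.01 (0.28 without mouse 3, and -0.08 to 0.28 over the 5 mice left out in turn) and summed TPM of 146 and 131 against 213, 188 and 153. Both sums were lower in mouse 3 than in mice 1 and 2, as Dll4 was, and their part in its level was not tested. Heyl was lower in mouse 3 too, but it is itself in the smooth muscle and pericyte list, so its likeness to that sum is partly built in. The arterial list shares 3 genes with the list of other Hes and Hey genes and direct targets. The renin list (Ren1 and Akr1b7, led by Ren1) had a median of -0.29, which was -0.46 without mouse 3 and turned to 0.12 without Prdm16fl/fl mouse 1.

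Fibroblast and matrix markers, led by Col3a1, had a median of 0.61 (9 of 11 above 0), which was the same without mouse 3 but 0.21 without control mouse 1 and 1.15 without control mouse 3, and their summed TPM was 237 and 357 in controls and 696, 685 and 410 in knockouts. Macrophage markers, led by Lyz2, had a median of 0.25 (0.43 without mouse 3, and 0.11 to 0.43 over the mice left out in turn) and summed TPM of 1840 and 2380 against 3520, 3190 and 1470, and proliferation markers, led by Pcna, a median of 0.29 (0.50 without mouse 3, and 0.07 to 0.50) and 245 and 238 against 408, 356 and 234. For these lists mouse 3 lay below mice 1 and 2, as it did for Jag1, Notch2 and Rbpj, and their part in the Jag1 value was not tested. Lymphocyte markers had a median of -0.26 (-0.02 without mouse 3, and -0.64 to -0.02) and neutrophil markers of 0.44 (0.76 without mouse 3, and 0.23 to 0.80). The neutrophil median rests on the 3 of 6 markers that passed the filter, with Mpo listed at 0 in all mice. Erythroid markers, led by Hbb-bs, had the largest median of the 18 lists, 3.93 (4.32 without mouse 3), with summed TPM of 24.1 and 34.0 in controls and 657, 650 and 155 in knockouts.

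**Figure D5:**
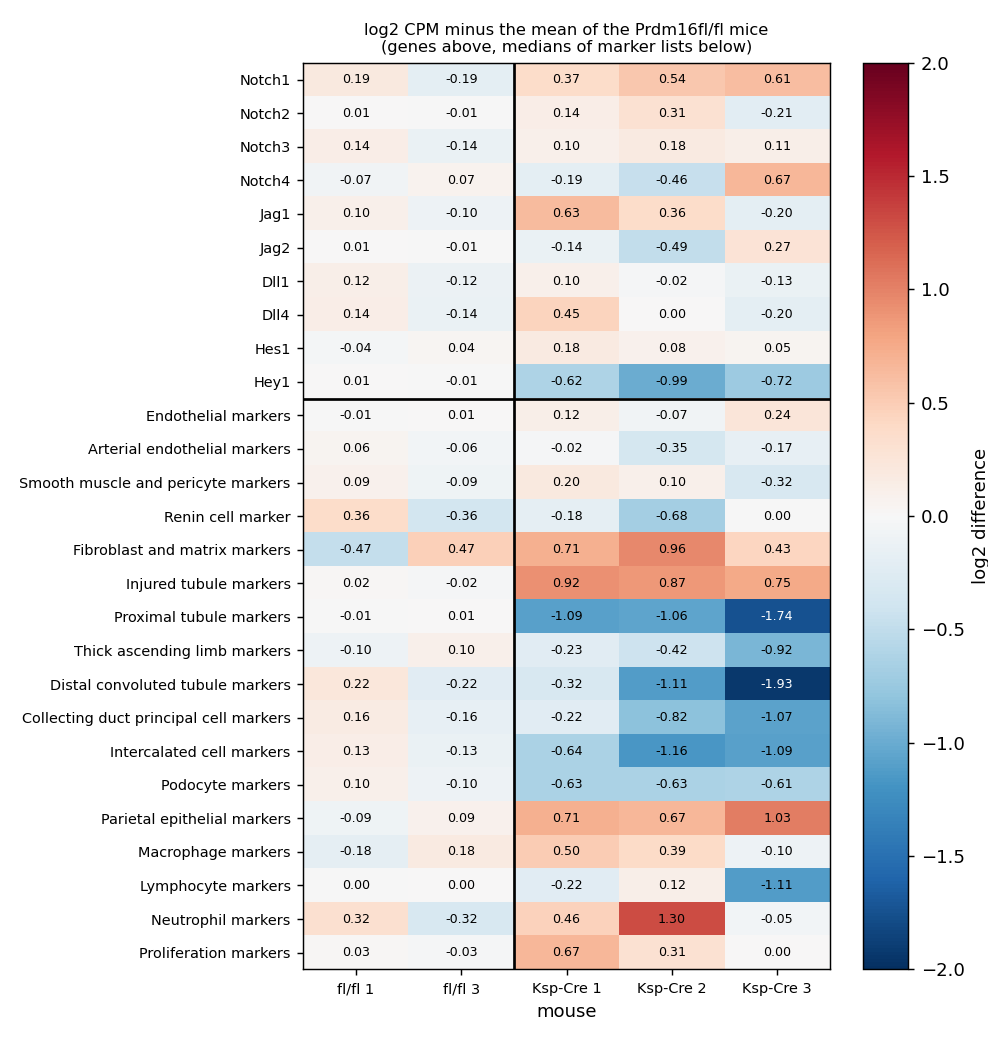
Log2 CPM of each Notch gene (above the line) and median of each cell-type marker list except the erythroid list (below), minus the mean of the 2 Prdm16fl/fl (fl/fl) mice, per mouse, with the value printed in each cell. Knockout (Ksp-Cre) mouse 3 differs from mice 1 and 2 in sign for Notch2, Notch4, Jag1, Jag2 and Dll4. Among the lists it does so for smooth muscle, macrophage and neutrophil markers, the last with only 3 genes tested.

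To describe which genes each member resembled, log2 CPM profiles over the 5 mice were centered and compared by root mean square (RMS) difference with 233 genes of the pathway and marker lists. Notch2 was closest to Pofut1, which fucosylates Notch (RMS 0.03), and to Adam17 (0.07). Notch1 was closest to Cspg4, a pericyte proteoglycan (0.10), and to Gxylt1 (0.11). Jag1 was closest to the proliferation marker Mki67 and the arterial ligand Efnb2 (both 0.09), Jag2 to the endothelial genes Emcn and Sox17 (both 0.10), and Notch4 to Cir1 (0.15) and the endothelial gene Esam (0.18). Dll4 was closest to Krt7 (0.08) and Birc5 (0.12), and Hey1 to the intercalated cell gene Atp6v1g3 (0.10) and Rfng (0.11). Notch3, Dll1 and Hes1, whose own profiles had an SD of 0.13, 0.12 and 0.08, were within 0.08 of Sel1l and Ncor1, of Maml2, and of Mfng and Eogt. With 5 mice and 2 genotypes these likenesses describe the libraries only.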

How the data were processed

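Total RNA was extracted from 5 kidneys, and libraries were made from mRNA isolated with oligo(dT) beads. The authors deposited a table per mouse with gene counts, TPM and FPKM. The submitters' processing notes name CASAVA, featureCounts 2.0.1, DESeq2 1.16.1 and hg38, a human build, although the deposited gene names are of mouse. The deposited coordinates differed from GRCm38 for 10 of 10 members, and the aligner, a mouse build and the use of strand are not given in the sources used here. Broken lines, 5 per file, were rejoined. The deposited TPM and FPKM values were recomputed from the counts and lengths to within 5e-06. Counts were filtered with filterByExpr, TMM-scaled and fitted with edgeR 4.0.16 in R 4.3.3 (quasi-likelihood, Benjamini-Hochberg over 16394 genes), after tests on simulated data. CPM are per 1000000 TMM-scaled counts, and log2 profiles used a prior count of 0.5. Alternatives used DESeq2 1.42.0, other filters and scalings, limma 3.58.1 on log2(FPKM + 1) and log2(FPKM + 0.1) of the deposited FPKM, a replicate block, removal of length and GC trends, and each mouse left out. Named genes were the members, Prdm16, in each other pathway list the genes called and up to 4 with the smallest unadjusted p under 0.05 and separated groups, the most abundant marker of each list, and the 2 genes most like each member, of which 1 item is not reported here. Members, lists and tests were chosen with earlier results of these data known. P-values set the genotype difference against the spread between these mice, with a variance estimate shared in part across genes. The mice were not stated to share litters by number.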

Additional observations from a re-analysis of the deposited data

How the results depend on the processing

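With 2 against 3 mice, calls depended on the fit. Against 17 higher and 143 lower genes, DESeq2 called 305 and 895, no filter on low counts 63 and 408, removal of a length trend 4 and 29, and of length and GC trends (chosen after seeing the data) 7 and 37. Lower calls numbered 37 with library size alone, 51 with limma on log2(FPKM + 1) and 34 with log2(FPKM + 0.1). Leaving out 1 mouse gave 0 to 1266 higher and 0 to 1787 lower genes. Leaving out either Prdm16fl/fl mouse leaves a lone control that is assumed to vary like the others. Of the other pathway genes, 1 was called in the main comparison, 11 with DESeq2, 4 with no filter, 3 with at least 10 counts in every library (213 of 14796 genes called in all), 0 with upper quartile scaling (117 of 16394 genes in all), library size alone, limma at both pseudocounts and both trend removals, and 0 to 20 with 1 mouse left out. Members called ranged from 0 to 1 with 1 mouse left out and were 0 in every other alternative, and members whose groups did not overlap ranged from 3 to 7 with 1 mouse left out and from 2 to 3 in the others. They were 2 with upper quartile scaling and with at least 10 counts in every library, where Hes1 overlapped, and 2 in both limma fits, whose filter left out Hey1. The median of the members was 0.22 with library size alone, where the median of all genes moved from 0.038 to 0.149, 0.19 with limma on log2(FPKM + 0.1), and -0.00095 with length and GC trends removed. The cause of these changes was not tested.

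The mouse numbers 1 and 3 occur in both groups, but deviations of same-numbered mice correlated at 0.00102 and -0.022, so the numbers were not taken to pair the mice. A replicate block by mouse number in edgeR called 0 genes higher, 0 lower and 0 pathway genes, with 2061 genes (12.6%) and 0 members at an unadjusted p under 0.05, and gave Notch2 -0.03 and Jag2 0.06.

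Small values changed sign. Notch2 was -0.02 with length and GC trends removed and -0.02 at the lowest with 1 mouse left out (range -0.02 to 0.23), Notch3 ranged from -0.01 to 0.27, Notch4 was -0.04 with the trends removed and ranged from -0.31 to 0.30, and Dll4 from -0.10 to 0.26. Jag2 was 0.01 with library size alone and ranged from -0.30 to 0.08. Dll1 was 0.10 with library size alone, 0.08 and 0.09 with limma at pseudocounts 1 and 0.1, and ranged from -0.13 to 0.10. Differences in TPM share, in percentage points, ranged over the fits without 1 mouse from -5.26 to 2.34 for Notch2, -1.58 to 0.778 for Notch3, -4.92 to 2.05 for Notch4, -4.93 to 0.0121 for Jag2 and -1.07 to 0.623 for Dll4. Notch1, Jag1, Hes1 and Hey1 kept their sign in all alternatives that gave a value.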
